A study of Mus musculus with 16 samples.

Results

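The mRNA levels of 10 pluripotency genes were followed in mouse embryonic stem cells (mESCs) while RUVBL2, an ATPase that works with RUVBL1 in chromatin remodelling and transcription complexes, was degraded. The genes were a fixed list taken by symbol from the expression tables: the core genes Pou5f1, Sox2, Sall4, Utf1, Lin28a and Lin28b, and the formative genes Fgf5, Otx2, Pou3f1 and Zic2. They are 10 of the 55335 genes in the tables, and 9 of them are among the 15155 genes with enough counts to be tested. Fgf5 was not tested.

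The cells were a V6.5 line with a Tet-ON OsTIR1 transgene in which RUVBL2 carried mAID and GFP at its C terminus on both alleles, and every condition, controls included, came from this engineered line derived from single clones. They grew with LIF and serum, with irradiated mouse embryonic fibroblasts (MEFs) as feeders, from which they were taken off over a pair of passages before harvest, per the study's methods. Doxycycline induces OsTIR1, a plant protein that marks mAID-tagged proteins for degradation once auxin is present. Poly(A) RNA was sequenced without any treatment (Mock), following 24 h in 2 µg/ml doxycycline (called 0 h, for the time in auxin), and following a further 0.5, 1, 6, 12, 24 or 48 h with 500 µM auxin added. Time on doxycycline rose together with time in auxin and cannot be told apart from it. Each of the 8 conditions had 2 libraries, 16 in all, which the study calls technical duplicates in one place and replicates in another, so that p-values rest on how far the 2 libraries of a condition lay apart, a spread that may be technical.

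Total counts were 11666732 to 13924958 per library, log2 levels of replicates correlated at 0.986 to 0.988 across genes, and no library stood apart. Ruvbl2 mRNA stood at 129 ± 0.231 CPM (counts scaled to library size, normalized by TMM, mean ± SD, n = 2) in Mock, 173 ± 6.43 at 0 h and 167 ± 0.713 after 48 h. The degron acts on the protein, so this mRNA does not check the labels. Nanog, at 1172 CPM at 0 h, and Pou5f1, at 909, are defining stem cell markers and were abundant. Among fibroblast markers, Col1a2, Col3a1, Dcn and Lum stayed at means of at most 0.14 CPM in every condition. Other fibroblast markers did not: of the 7 with enough counts to be tested, 5 rose and 1 fell between 0 h and 48 h, as given below. The summed level of the 16 markers, nearly all of it Fn1, ranged from 2250 to 2265 CPM at 0 h and from 3277 to 3430 after 48 h.

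Pou5f1 encodes OCT4, which binds DNA with SOX2 at enhancers of pluripotency genes. SALL4 and UTF1 belong to the same undifferentiated state, and LIN28A and LIN28B are RNA-binding proteins that block the maturation of let-7 microRNAs, which in turn repress Lin28 mRNAs through sites in their 3′ untranslated regions (UTRs). Formative genes are those switched on as naive cells move towards the state of the post-implantation epiblast: Fgf5 encodes a secreted growth factor, Otx2 a homeobox factor, Pou3f1 the POU factor OCT6 and Zic2 a zinc finger factor.

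The 2 genes with the widest span of condition means were Lin28a (9.91-fold) and Lin28b (4.70-fold), and both carry let-7 matches in the 3′ UTR, which are shown because these sites set the pair apart from most of the other members. The mature let-7a-5p of RefSeq (GRCm38.p6) has its seed, bases 2 to 8, in capitals, and 11 mouse mature microRNA names share that seed. The sites come from GENCODE M21 transcripts on GRCm38, on the minus strand, with the bases that pair with the seed, or with the seed and the following A, in capitals.
let-7a-5p: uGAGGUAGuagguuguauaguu
Lin28a site, chr4:134005189-134005218: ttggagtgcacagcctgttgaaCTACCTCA
Lin28a site, chr4:134004551-134004580: atgctttgagatcgccacaaacCTACCTCA
Lin28b site, chr10:45381022-45381051: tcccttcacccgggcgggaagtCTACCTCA
Lin28b site, chr10:45378648-45378677: acgtacatatacttgttagtaaCTACCTCt

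Lin28a has 2 matches to CTACCTCA in 2775 bases of 3′ UTR, and Lin28b has 1 in 4445 bases, beside 3 matches to the 7 bases CTACCTC alone. The 8 bases occur in 2.99% and the 7 bases in 8.83% of the 20851 genes with a 3′ UTR, searched on the strand of the transcript. These shares were not adjusted for length: the median 3′ UTR has 938 bases, and those of Lin28a and Lin28b are the longest among the members. Sall4 has 1 match to the 8 bases, and the other 7 genes have none. A match is a description of letters, and microRNAs were not measured in poly(A) libraries.

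The promoters of Lin28a and Lin28b (RefSeq, GRCm38.p6, 250 bases before to 50 after the start, minus strand) are shown because these mRNAs moved together; capitals mark CACGTG and ATTGG, the reverse complement of CCAAT.
Lin28a promoter, chr4:134018767-134019066: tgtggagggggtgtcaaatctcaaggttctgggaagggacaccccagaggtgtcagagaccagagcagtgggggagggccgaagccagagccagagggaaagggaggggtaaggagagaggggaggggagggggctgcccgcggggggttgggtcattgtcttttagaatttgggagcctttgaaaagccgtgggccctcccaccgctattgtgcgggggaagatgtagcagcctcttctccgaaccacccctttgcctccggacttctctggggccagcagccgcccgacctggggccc
Lin28b promoter, chr10:45470152-45470451: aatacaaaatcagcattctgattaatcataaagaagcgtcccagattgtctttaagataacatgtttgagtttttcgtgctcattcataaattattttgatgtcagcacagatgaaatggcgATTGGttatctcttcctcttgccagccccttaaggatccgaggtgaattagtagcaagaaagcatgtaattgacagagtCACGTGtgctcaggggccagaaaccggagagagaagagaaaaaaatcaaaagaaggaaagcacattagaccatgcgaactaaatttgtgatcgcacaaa

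The Lin28b window holds one CACGTG, 49 bases before the start, and one ATTGG, 128 bases before it, and the Lin28a window holds neither. Searched on both strands, CACGTG is in 7.15% and CCAAT in 37.4% of 32851 promoters of this length. Of the other motifs searched, ATGCAAAT (in 1.74% of promoters) and TATAAA (13.6%) were in neither window, and ACAATG (12.6%) was in that of Lin28a. This Lin28b start lies inside the longer GENCODE gene, which runs from 45376620 to 45486395. Of the 10 genes, 7 have a promoter entry.

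TPM, which divides by gene length, allows levels to be compared between genes. Pou5f1 was the most abundant at a mean of 1340 TPM over the 16 libraries, above 99.3% of tested genes, followed by Sox2 at 420 TPM, Utf1 at 231 TPM and Sall4 at 118 TPM. Lin28a averaged 67.1 TPM, Zic2 34.7, Otx2 9.51, Lin28b 3.43 and Pou3f1 2.69. Fgf5 came last at 0.0995 TPM. The core genes therefore spanned a wide range of levels, with Lin28b below Zic2 and Otx2. The plot of TPM by gene gives every library.

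**Figure D1:**
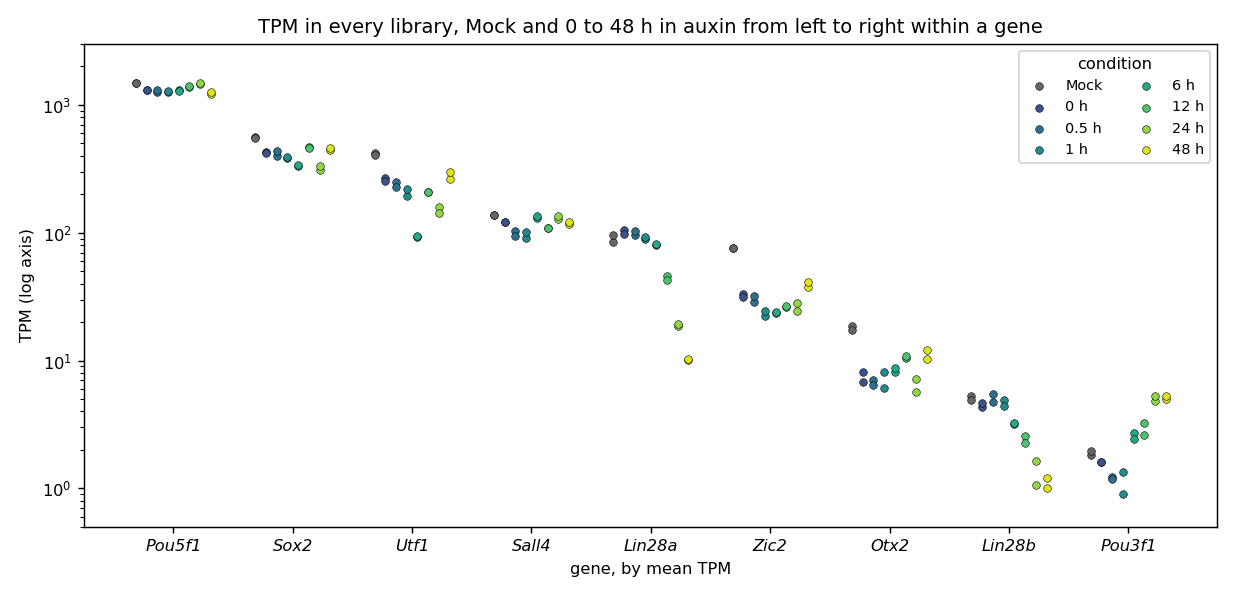
TPM (log axis) of the 9 tested genes in all 16 libraries, each point 1 library, colored by condition from Mock to 48 h in auxin. Pou5f1 stays at 1223 TPM or above throughout, while Lin28a runs from 106 down to 10.2 TPM and Pou3f1 ends at its highest values.

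The main test was edgeR's quasi-likelihood test over all 16 libraries, and genes are referred to as called when the p-value, adjusted by Benjamini and Hochberg's method, was under 0.05 with more than a 1.5-fold change. In bulk RNA, fewer cells of a type and less RNA per cell cannot be told apart. The comparisons of auxin times with 0 h share the 0 h libraries, so their values are given side by side.

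Doxycycline alone came with lower levels of 3 of the 9 genes, Utf1, Otx2 and Zic2, at a background of 9.43% of all genes called between 0 h and Mock (4.24% lower and 5.19% higher). Zic2 stood at 69.8 and 68.8 CPM in Mock and at 29.7 and 28.3 at 0 h. Otx2 stood at 25.1 and 23.01 CPM in Mock and at 10.6 and 8.99 at 0 h. Utf1 stood at 165 and 157 CPM in Mock and at 102 and 96.3 at 0 h. The Mock and 0 h libraries did not overlap for these 3 genes, nor for 8 of the 9 in all, which was also so for 67.9% of all genes tested. The log2 fold changes were -1.26 (SE 0.07, edgeR adjusted p = 5.2e-12) for Zic2, -1.29 (SE 0.13, adjusted p = 4.8e-08) for Otx2 and -0.70 (SE 0.06, adjusted p = 4.9e-09) for Utf1. Sox2, with 367 and 357 CPM in Mock and 273 and 270 at 0 h, differed by -0.41 (SE 0.04) and did not reach the fold threshold. The median over the 9 genes was -0.26 against -0.01 over all genes tested.

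Of 15 other formative and primed genes tested, 3 fell in the same comparison, among them Zic5 (-0.71) and Sall2 (-0.59), against the 4.24% of all genes that were lower. Of 13 naive genes, 3 fell, among them Prdm14 (-1.41) and Dppa3 (-1.38).

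In the first hour of auxin none of the 9 genes was called, at a background of 0.732% of all genes after 0.5 h (0.455% higher and 0.277% lower) and 1.21% after 1 h (0.666% and 0.541%). At an unadjusted p under 0.05, edgeR counted 1 of the 9 after 0.5 h and 4 after 1 h, and DESeq2 on 16 libraries, which returned an adjusted p for 6 of them, counted 1 and 3, as it did on the 4 libraries of each comparison alone, while limma on log2(TPM + 1) counted 1 and 6. By the same edgeR threshold, 19.5% of all genes passed after 0.5 h and 23.6% after 1 h. Sall4 had the smallest adjusted p of the 9 at both times, with 207 and 210 CPM at 0 h, 182 and 167 after 0.5 h and 162 and 178 after 1 h. Its differences of -0.26 (SE 0.05, edgeR adjusted p = 0.00067) and -0.30 (SE 0.05, adjusted p = 0.00011) stayed inside the fold threshold, although the libraries did not overlap. For Pou5f1 the 95% interval of the log2 difference after 1 h ran from -0.07 to 0.08, and for Pou3f1, with 14 to 27 reads in these libraries, from -1.17 to 0.18.

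Lin28a had the largest change of the 10 genes. Lin28a (GRCm38 chromosome 4, 134003330 to 134018841, minus strand) stood at 108 and 122 CPM in Mock, 131 and 121 at 0 h, 120.1 and 131 after 0.5 h, 115 and 118 after 1 h, 100.03 and 103 after 6 h, 59.2 and 54.2 after 12 h, 23.01 and 23.02 after 24 h, and 12.7 and 12.8 after 48 h. From 6 h onward each later time lay below the earlier ones without overlap. Between 0 h and 48 h the mRNA fell 9.90-fold, with log2 fold changes against 0 h of -0.32 after 6 h, -1.16 after 12 h, -2.46 after 24 h and -3.31 (SE 0.08, edgeR adjusted p = 8.1e-20) after 48 h. The value after 6 h was inside the fold threshold. Each successive step was called too, at -0.84 from 6 to 12 h, -1.30 from 12 to 24 h and -0.85 from 24 to 48 h. The gene overlaps Gm13061 on the opposite strand, and the sources used here do not give whether counts used the strand.

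Lin28b fell over the same period from a lower level. Lin28b (chromosome 10, 45376620 to 45486395, minus strand) stood at 15.2 and 14.2 CPM in Mock, 12.2 and 13.2 at 0 h, 13.7 and 15.7 after 0.5 h, 14.5 and 12.6 after 1 h, 9.04 and 9.22 after 6 h, 7.59 and 6.54 after 12 h, 2.97 and 4.40 after 24 h, and 3.41 and 2.84 after 48 h. Ordered by mean level, 0 h overlapped 1 h, 1 h overlapped 0.5 h and 0.5 h overlapped Mock, while 0 h lay below both 0.5 h and Mock without overlap. The 24 and 48 h libraries overlapped. The log2 fold changes against 0 h were -0.48 after 6 h, inside the fold threshold, -0.85 after 12 h, -1.78 after 24 h and -2.02 (SE 0.17, edgeR adjusted p = 4.5e-10) after 48 h, a 4.07-fold fall. The step from 12 to 24 h was called, at -0.93 (SE 0.19), and the step from 24 to 48 h was not, at -0.25 (SE 0.22). Across the 16 libraries, which share the time course, log2 CPM of Lin28a and Lin28b correlated at 0.96.

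Of the 12 other genes of the LIN28 and let-7 axis, 3 were called at 24 h, a share below the 40.5% of all genes called. At 48 h, 4 were called, a share near the 35.5% of all genes. At 24 h, 1 rose and 2 fell. Hmga2, which encodes a chromatin protein, rose, at 1.15 (SE 0.15). The RNA-binding protein gene Igf2bp1 fell, at -1.05 (SE 0.04), as did the ubiquitin ligase gene Trim71, at -0.70 (SE 0.05). The 3′ UTRs of these 3 genes each hold 4 matches to the 7 bases CTACCTC. Of the 8 bases CTACCTCA, Hmga2 has 1 match, Igf2bp1 3 and Trim71 4. At 48 h, 3 rose and 1 fell, among them Hmga2 at 1.17, Tut7, which encodes a uridylyltransferase, at 0.74 and Dis3l2, which encodes a nuclease that degrades uridylated let-7 precursors, at -0.66. The median over the 12 genes was 0.02 after 24 h and -0.11 after 48 h, against -0.02 and 0.01 over all genes tested.

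**Figure D2:**
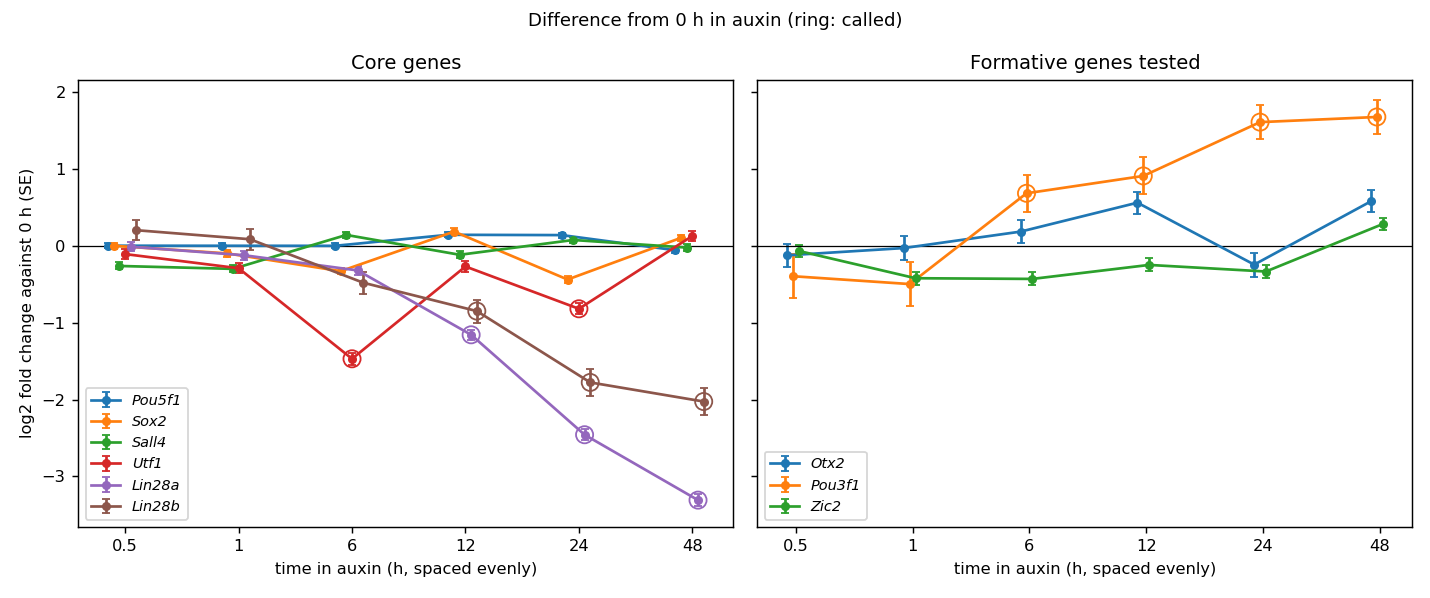
log2 fold change of the 9 tested genes against 0 h (y axis) by time in auxin (x axis, spaced evenly), points with SE from edgeR, rings around called values; all points share the 0 h libraries. Lin28a reaches -3.31 and Lin28b -2.02 after 48 h, Pou3f1 1.68, and Utf1 goes down to -1.47 after 6 h and is back at 0.13 after 48 h.

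At 6 h, 1 of the 9 genes was called lower and 1 higher, at a background of 15.8% (5.7% lower and 10.1% higher). Utf1 (chromosome 7, 139943789 to 139945112, plus strand) was the lower one: beside the values above, it stood at 96.1 and 88.4 CPM after 0.5 h, 77.2 and 85.3 after 1 h, 35.8 and 35.9 after 6 h, 83.1 and 81.8 after 12 h, 60.2 and 52.6 after 24 h, and 101 and 116 after 48 h. Utf1 thus had 2 low points, at 6 and 24 h, and its 48 h libraries overlapped those at 0 h. The log2 fold changes were -1.47 (SE 0.07, edgeR adjusted p = 1.7e-13) after 6 h and -0.82 (SE 0.07, adjusted p = 3.5e-10) after 24 h. The steps up were called, at 1.20 from 6 to 12 h and 0.95 from 24 to 48 h, and the step from 12 to 24 h, at -0.55, did not reach the fold threshold.

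Pou3f1 rose. Pou3f1 (chromosome 4, 124656807 to 124660655, plus strand) stood at 2.24 and 2.39 CPM in Mock, 1.93 and 1.92 at 0 h, 1.49 and 1.44 after 0.5 h, 1.12 and 1.62 after 1 h, 3.29 and 2.93 after 6 h, 4.03 and 3.23 after 12 h, 5.77 and 6.05 after 24 h, and 6.00 and 6.38 after 48 h. All libraries from 6 h onward lay above all earlier ones, 6 and 12 h overlapped, and so did 24 and 48 h. The log2 fold changes against 0 h were 0.69 (SE 0.24, edgeR adjusted p = 0.025) after 6 h, 0.91 (SE 0.24, adjusted p = 0.0024) after 12 h, 1.61 (SE 0.22, adjusted p = 7.8e-07) after 24 h and 1.68 (SE 0.22, adjusted p = 4.2e-07) after 48 h. The call after 6 h was lost with DESeq2 (adjusted p = 0.14 on 16 libraries and 0.29 on 4) and without 0 h replicate 1, 0 h replicate 2 or 6 h replicate 1 (adjusted p = 0.089, 0.092 and 0.13). Counts were 14 to 83 per library, and 331 bases of the gene are identical to Gm2164 on the opposite strand.

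Markers of other cell types are given beside these values, with the share of all genes called higher at 10.1% after 6 h, 20.2% after 24 h and 17.9% after 48 h. Of 6 neural markers tested, Tubb3 (1.71) and Map2 (1.24) rose after 6 h, Tubb3 fell after 24 h (-1.08) and Sox1 (1.28) rose after 48 h, while Dcx was at 0 in every condition. The summed level of the 12 markers was 172 CPM in both 0 h libraries, 396 and 398 after 6 h, 107 to 113 after 24 h and 156 and 166 after 48 h. After 12 h, 2 of the 6 neural markers tested were called higher and 0 lower, against 14.8% and 13.2% of all genes. After 24 h, 0 were called higher and 1, Tubb3, lower, against 20.2% and 20.3% of all genes. The median log2 change over the 6 was 0.07 after 24 h, so the lower sum does not describe the markers as a set. Of 8 primitive endoderm markers, 5 were tested, and 4 of these rose after 48 h: Hnf4a (3.14), Sox17 (2.08), Gata6 (1.68) and Dab2 (1.33). Hnf4a, Sox17 and Gata6 did not reach the filter's minimum of 0.772 CPM in either 0 h library, so nothing is drawn from these 3. The summed level over all 8 was 7.37 to 8.60 CPM at 0 h, 11.8 to 14.7 after 24 h and 15.2 to 18.3 after 48 h. Of 7 fibroblast markers tested, 5 rose after 48 h, among them Pdgfra (2.57) and Pdgfrb (2.52), and Vim fell (-2.53). Of those that rose, 2, Pdgfra and Col1a1, were under that minimum in both 0 h libraries, so nothing is drawn from these 2. Both mesoderm markers tested of 7, Gsc (2.99) and Eomes (0.90), rose after 48 h, with a summed level of 10.3 to 12.0 CPM at 0 h and 25.4 to 30.4 after 48 h. The 8 trophectoderm markers summed to 97.8 to 101 CPM at 0 h and 121 to 133 after 48 h. Of the 6 trophectoderm markers tested, 0 were called higher after 48 h and 1 lower, against 17.9% and 17.6% of all genes. The part of all these markers in the result was not tested.

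The calls after 12 h were 1 of the 9 genes higher, Pou3f1, and 2 lower, Lin28a and Lin28b, at a background of 28% (14.8% higher and 13.2% lower). At 24 h, 1 was higher, Pou3f1, and 3 were lower, Utf1, Lin28a and Lin28b, at a background of 40.5% (20.2% and 20.3%). At 48 h, Pou3f1 was higher and Lin28a and Lin28b lower, at a background of 35.5% (17.9% and 17.6%). The share of the 9 genes called was near the background at each of these times. The median over the 9 genes was -0.33 after 24 h and 0.11 after 48 h.

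Pou5f1, Sox2 and Sall4 were never called against 0 h. Pou5f1 (chromosome 17, 35506018 to 35510772, plus strand) stood at 1056 and 1048 CPM in Mock, 907 and 911 at 0 h, 891 and 933 after 0.5 h, 911 and 912 after 1 h, 919.5 and 903 after 6 h, 1009 and 1004 after 12 h, 1014 and 993 after 24 h, and 863 and 889 after 48 h. Its condition means spanned 1.20-fold, and the 95% interval of its log2 difference from 0 h after 48 h ran from -0.13 to 0.02. After 12 h and after 24 h that interval lay above 0, at 0.07 to 0.22 each time. Sall4 (chromosome 2, 168748332 to 168767943, minus strand) stayed between 162 and 244 CPM, highest in Mock and lowest after 1 h, a 1.42-fold span of condition means. It shares 293 identical bases with Gm14261 on the opposite strand.

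Sox2 (chromosome 3, 34650405 to 34652461, plus strand, inside the transcript Sox2ot of the same strand) moved up and down. It stood at 273 and 269.6 CPM at 0 h, 259 and 285 after 0.5 h, 255 and 253 after 1 h, 214 and 219 after 6 h, 314 and 304 after 12 h, 197 and 204 after 24 h, and 285 and 299 after 48 h. The libraries at 6 and 24 h were the lowest and did not overlap those at 0 h. The log2 differences from 0 h were -0.33 (SE 0.04, edgeR adjusted p = 1.4e-06) after 6 h and -0.44 (SE 0.04, adjusted p = 4.5e-09) after 24 h. Both were inside the fold threshold. Only the step from 12 to 24 h was called, at -0.62 (SE 0.04, edgeR adjusted p = 2.8e-11), just past the fold threshold, and the call was lost with total counts and on the log2 TPM scale. Over the 16 libraries Sox2 correlated with Utf1 at 0.86.

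From 12 to 24 h, 4 of the 9 genes fell (Sox2, Lin28a, Lin28b and Otx2) and Pou3f1 rose, at 0.70 (SE 0.20), at a background of 19.8% (10.8% lower and 8.99% higher). The Pou3f1 call was lost with DESeq2 and without 12 h replicate 2. From 24 to 48 h, 3 genes rose (Utf1, Otx2 and Zic2) and Lin28a fell, at a background of 24.5% (12.2% and 12.3%), and from 6 to 12 h Utf1 rose and Lin28a fell, at a background of 16.7% (7.92% and 8.83%).

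Otx2 (chromosome 14, 48657677 to 48673819, minus strand, overlapped by Otx2os1 and Gm49154) stood at 9.46 and 8.59 CPM after 0.5 h, 8.40 and 10.9 after 1 h, 10.8 and 11.5 after 6 h, 14.3 and 14.7 after 12 h, 9.42 and 7.23 after 24 h, and 15.9 and 13.5 after 48 h. The 12 and 48 h libraries overlapped each other and lay above all others in auxin, and below both Mock libraries. The steps were -0.81 (SE 0.15, edgeR adjusted p = 9.7e-05) from 12 to 24 h and 0.82 (SE 0.15, adjusted p = 6.1e-05) from 24 to 48 h. Against 0 h, the differences of 0.57 after 12 h and 0.58 after 48 h ended just inside the fold threshold, and Otx2 was called higher after 12 h without 0 h replicate 1 or 12 h replicate 1, and after 48 h without 0 h replicate 1 or 48 h replicate 2.

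Zic2 (chromosome 14, 122475435 to 122479852, plus strand) stood at 26.1 and 29.3 CPM after 0.5 h, 20.9 and 22.5 after 1 h, 21.4 and 21.7 after 6 h, 24.5 and 24.4 after 12 h, 21.9 and 24.1 after 24 h, and 33.8 and 36.8 after 48 h. The 48 h libraries lay above all others in doxycycline and well below Mock. The step from 24 to 48 h was 0.62 (SE 0.08, edgeR adjusted p = 1.4e-06), just past the fold threshold, and the call was lost in 6 of 15 alternatives: without 24 h replicate 1 or 48 h replicate 2, without a filter, with a fold of 2 and on both log2 TPM scales. Otx2 and Zic2 correlated at 0.80 over the 16 libraries.

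Fgf5 (chromosome 5, 98254184 to 98277030, plus strand) was at or near the detection limit. It had 0 counts in both libraries at 0, 0.5 and 1 h, 0 and 2 in Mock, 0 and 3 after 6 h, 2 and 0 after 12 h, 1 and 4 after 24 h, and 1 and 3 after 48 h. A library with 0 counts allows a level of up to 3 counts, which is 0.214 to 0.256 CPM in these libraries, a limit that covers counting error only. Expression above this limit was seen in 1 library, at 0.314 CPM after 24 h, and no fold change is given.

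**Figure D3:**
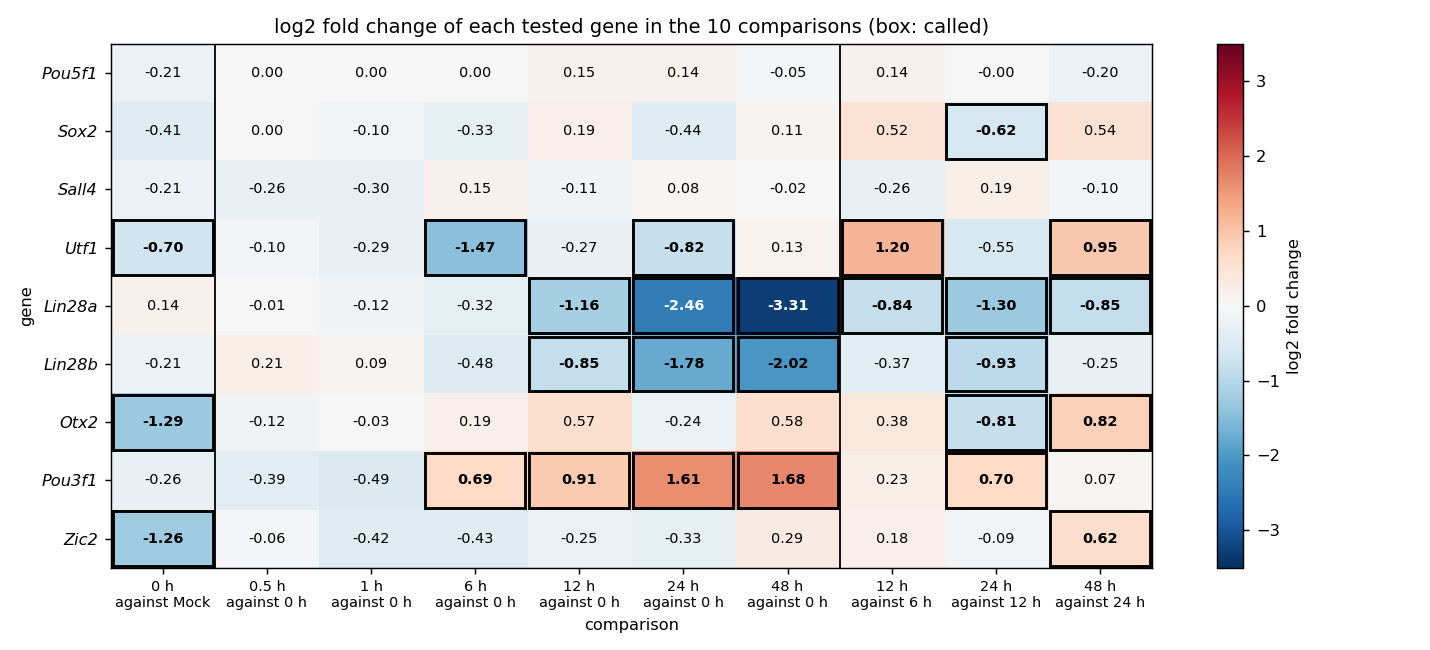
log2 fold change of each of the 9 tested genes (rows) in the 10 comparisons (columns), red higher and blue lower, with a box around called values. Lin28a has 6 boxes, all lower, Pou3f1 has 5, all higher, and Pou5f1 and Sall4 have none.

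At 24 h, when 40.5% of all genes were called (20.3% lower), 7 of the 15 other formative genes tested fell, with Etv4 at -3.91 (SE 0.21) and Dnmt3l at -2.68 (SE 0.08) among them. The 1 other called, Lef1, had 0.40 CPM at 0 h and 1.42 after 24 h, and as neither 0 h library reached the filter's minimum, nothing is drawn from it. From 24 to 48 h, 7 of the 15 rose and 2 fell, with Sall2 at 2.12 among those that rose, against 12.2% and 12.3% of all genes. Of 13 naive genes, 2 fell after 24 h, against the 20.3% of all genes that were lower: Nanog at -1.20 (SE 0.04) and Zfp42 at -1.54 (SE 0.03). After 48 h, 1 of the 13 was called higher and 0 lower. Nanog stood at 1172 CPM at 0 h, 512 after 24 h and 1154 after 48 h. Zfp42 stood at 938, 322 and 659 CPM at these times. Of 18 other shared pluripotency genes, 5 fell and 1 rose after 24 h, a share near that of all genes called, with L1td1 at -2.78 and Foxd3 at -1.53.

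Among 9 FGF receptors and SOX and POU relatives, 7 rose and 1 fell after 24 h, and 7 rose after 48 h. The largest changes after 24 h were those of Fgfr2 (2.10, SE 0.27), Sox4 (1.89, SE 0.15), Fgfr4 (1.63, SE 0.36) and Fgfr3 (1.59, SE 0.50). At 48 h they were those of Fgfr3 (2.06), Sox21 (1.86), Fgfr4 (1.43) and Fgfr1 (1.40). Fgfr3 was under the filter's minimum in both 0 h libraries, so nothing is drawn from its rise. Of all genes, 20.2% were higher after 24 h and 17.9% after 48 h.

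Among 9896 candidates of at least 5 CPM, the genes most like Lin28a by correlation of log2 CPM over the 16 libraries were Tdrd12, Dbi and Cnn2, each at 0.99. Their log2 fold changes after 48 h were -1.43, -1.60 and -3.07. Those most like Lin28b were Ube2l3 (0.99), Armh4 and Dstn (both 0.98), and those most like Pou3f1 were Plekha3, Csk and Pkd1 (each 0.98). For Utf1 they were Mmut, Crnkl1 and Msantd2 (each 0.95). For Sox2 the nearest were Klf9 (0.96), Tspyl1 and Zfp143, for Pou5f1 Cacybp (0.93), mt-Co1 and Mettl23, and for Sall4 Prr12 (0.92), Prdm14 and Zfp790. For Otx2 they were Cd9 (0.92), Nefh and Ddx17, and for Zic2 Tet3 (0.93), Msl2 and Pdpk1.

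Scaling changed several of these values. With library factors from the reads that the study lists as mapped to the fly genome (dm6), whose source in these libraries is not given, the median log2 change of all genes was 0.38 between 0 h and Mock, 0.19 after 1 h, -0.56 after 12 h, -0.23 after 24 h, -0.18 after 48 h, -0.54 from 6 to 12 h and 0.35 from 12 to 24 h. Genes called higher and lower were then 3448 and 180 for 0 h against Mock in place of 786 and 643, 62 and 70 after 0.5 h in place of 69 and 42, 463 and 43 after 1 h in place of 101 and 82, and 879 and 6643 after 12 h in place of 2247 and 2001. They were 2231 and 4331 after 24 h in place of 3064 and 3072, 1938 and 3737 after 48 h in place of 2707 and 2673, 224 and 6034 from 6 to 12 h in place of 1200 and 1338, and 3792 and 756 from 12 to 24 h in place of 1362 and 1633. Lin28a and Lin28b were called lower at 12, 24 and 48 h under this scaling as well, and Pou3f1 was called higher at 24 and 48 h but not after 12 h (0.36, adjusted p = 0.19). Utf1 lost its call between 0 h and Mock (-0.31), and Sall4, Utf1 and Zic2 were called lower after 12 h. Pou5f1 changed sign after 12 h (-0.41), as did Sox2 (-0.37). The steps of Sox2, Otx2 and Lin28b from 12 to 24 h were not called.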

How the data were processed

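RNA-Seq libraries of RUVBL2 degron mESCs, 8 conditions with 2 libraries each, were grouped by their labels. According to the submitters' processing notes and the study's methods, reads were trimmed with cutadapt 1.18, aligned to mm10 with STAR 2.7.3a, freed of duplicates and quantified with RSEM 1.3.1 on a GENCODE annotation, and the authors compared conditions with DESeq2 1.24.0. Expected counts, deposited as estimated by RSEM for each gene, were not normalized, and 6.76 to 7.94% per library are not whole. The deposited TPM values are scaled by gene length and library. A deposited table of the authors' own fold changes and p-values was not used.

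Expected counts were rounded, normalized by TMM and filtered with filterByExpr (edgeR 4.0.16 in R 4.3.3, with DESeq2 1.42.0 and limma 3.58.1 for alternatives), and 1 quasi-likelihood model was fitted to 16 libraries (8 residual degrees of freedom, common biological coefficient of variation 3.43%), with p-values adjusted over 15155 genes. SEs were obtained as the absolute log2 fold change over the root of the F statistic. Intervals are 95% and use only the 8 residual degrees of freedom, fewer than the test used, so they are wider than its p-values imply. The steps were tested on data simulated for 24 h against 0 h. Of 50 genes changed 2-fold, 41 were called, and of 50 changed 4-fold, 49 were, with 4 false calls. Genes simulated at the 1.5-fold threshold itself are not reported here. All 10 genes were named; of further lists up to 4 members, those called with the largest change, and for each tested gene the 3 best correlated. Some values of the further lists are not reported here. The genes and lists were chosen with earlier results of these data known. Positions come from GENCODE M21 (GRCm38, which is mm10), with a match by ID for 55154 of 55335 IDs. Replicates varied by 1.58 to 2.97 times counting noise. Alternatives were 3 other scalings, DESeq2, limma on log2(TPM + 1) or log2(TPM + 0.1) for genes at 1 TPM in 2 libraries, other filters (none, or 1 CPM in 2 libraries), a fold of 2, Mock as baseline, a replicate block and leaving out each library.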

Additional observations from a re-analysis of the deposited data

How the results depend on the processing

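Depth limits Fgf5, which stayed at 0 to 4 counts, and Pou3f1, at 14 to 83. With 2 libraries a condition, leaving one out assumes that the lone library varies like the other conditions. The calls of Lin28a and Lin28b at 24 and 48 h, of Lin28a after 12 h, of Pou3f1 at 24 and 48 h, of Utf1 after 6 h and of Zic2 and Otx2 between 0 h and Mock held in all 15 alternatives counted for each. That count leaves out the Mock baseline, which replaces 0 h in the comparison. The replicate numbers do not pair the libraries (correlations of their deviations between conditions ran from -0.12 to 0.16, and 1 of 28 was over 0.1), and with the replicate block the numbers of members called did not move, 3 lower for 0 h against Mock, 1 higher and 3 lower after 24 h, and 1 higher and 2 lower after 48 h among them. Causes were not tested.

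Changes in the number of members called by over 1.5 times come first. The count higher after 6 h was 0 in place of 1 with DESeq2 on 16 or 4 libraries, no filter, a fold of 2, limma on log2(TPM + 1) or the Mock baseline. The count higher from 12 to 24 h was 0 in place of 1 with DESeq2 on 16 or 4 libraries or a fold of 2. The count higher after 12 h was 0 in place of 1 with DESeq2 on 4 libraries, dm6 reads or a fold of 2. With dm6 reads 5 in place of 2 were lower after 12 h, 3 in place of 1 from 6 to 12 h, and 1 in place of 4 from 12 to 24 h. With a filter of 1 CPM in 2 libraries 2 in place of 1 were higher after 48 h. With a fold of 2, 1 in place of 2 was lower after 12 h, 0 in place of 1 from 6 to 12 h, 1 in place of 4 from 12 to 24 h, and from 24 to 48 h 0 in place of 3 were higher and 0 in place of 1 lower. With limma on log2(TPM + 1), 2 in place of 4 were lower from 12 to 24 h. With the Mock baseline 3 members were lower after 0.5 h, 4 after 1 h, 5 after 6 h, 5 after 12 h, 6 after 24 h and 4 after 48 h. Smaller changes were 2 in place of 3 lower for 0 h against Mock with dm6 reads or a fold of 2 (Utf1 lost), 4 with dm6 reads and 2 with a fold of 2 in place of 3 lower at 24 h, 3 in place of 4 lower from 12 to 24 h with total counts or limma on log2(TPM + 0.1), and 2 in place of 3 higher from 24 to 48 h without a filter or with limma on either scale (Zic2 lost). Leaving out each library in turn gave 0 to 1 higher after 6 h, 1 to 2 after 12 h, 1 to 2 after 48 h and 0 to 1 from 12 to 24 h, with 4 to 5 lower from 12 to 24 h and 2 to 3 higher from 24 to 48 h.

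In 75 cases a log2 value changed sign, 71 of them not called on either side. With the Mock baseline these were Lin28a 0.13 (0.5 h) and 0.020 (1 h), Lin28b -0.0011 (0.5 h) and -0.12 (1 h), Pou5f1 -0.21 (0.5 h), -0.21 (1 h), -0.21 (6 h), -0.064 (12 h) and -0.068 (24 h), Sox2 -0.41 (0.5 h), -0.23 (12 h) and -0.31 (48 h), Sall4 -0.069 (6 h) and -0.14 (24 h), Utf1 -0.56 (48 h), and, called lower, Otx2 -1.11 (6 h), -0.73 (12 h) and -0.71 (48 h) and Zic2 -0.97 (48 h). With dm6 reads they were Pou3f1 0.13 (0 h against Mock) and -0.31 (6 to 12 h), Lin28b 0.18 (0 h against Mock), Pou5f1 0.18 (0 h against Mock), -0.034 (0.5 h), -0.016 (6 h), -0.41 (12 h), -0.072 (24 h), -0.40 (6 to 12 h) and 0.34 (12 to 24 h), Sall4 0.18 (0 h against Mock) and -0.14 (24 h), Sox2 -0.035 (0.5 h), 0.096 (1 h), -0.37 (12 h), -0.083 (48 h) and -0.025 (6 to 12 h), Lin28a 0.072 (1 h), Otx2 0.17 (1 h) and -0.16 (6 to 12 h), Utf1 -0.058 (48 h), and Zic2 -0.36 (6 to 12 h) and 0.26 (12 to 24 h). With limma on either log2 TPM scale Pou5f1 was -0.023 (0.5 h), -0.037 (1 h), -0.0046 (6 h) and 0.074 (12 to 24 h) and Sox2 -0.026 (0.5 h). Without a filter Pou5f1 was -0.00052 (0.5 h), -0.0031 (1 h), -0.012 (6 h) and 0.00060 (12 to 24 h) and Sox2 -0.0017 (0.5 h). With total counts Sox2 was -0.00049 (0.5 h) and Pou5f1 0.037 (12 to 24 h), and Pou5f1 was 0.011 (12 to 24 h) with DESeq2 on 16 libraries and with its size factors. Leaving out a library gave ranges after 0.5 h of -0.073 to 0.053 for Lin28a, -0.23 to 0.0047 for Otx2, -0.028 to 0.037 for Pou5f1, -0.065 to 0.069 for Sox2 and -0.15 to 0.017 for Zic2, after 1 h of -0.019 to 0.19 for Lin28b and -0.22 to 0.16 for Otx2, of -0.0098 to 0.017 for Pou5f1 after 6 h, -0.041 to 0.0018 for Sall4 after 48 h, -0.017 to 0.025 for Pou5f1 from 12 to 24 h and -0.49 to 0.046 for Lin28b from 24 to 48 h.

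Counts over all genes, higher and lower, moved by over 1.5 times with DESeq2 on 16 libraries (24 and 5 after 0.5 h, 28 and 25 after 1 h), with DESeq2 on 4 libraries (455 and 355 for 0 h against Mock, 17 and 4 after 0.5 h, 25 and 17 after 1 h, 956 and 569 after 6 h, 874 and 801 from 6 to 12 h), without a filter (97 and 89 after 0.5 h), without 0 h replicate 1 (42 and 29 after 0.5 h), with the Mock baseline (1061 and 736 after 0.5 h, 1119 and 847 after 1 h, 2224 and 1693 after 6 h) and with a fold of 2 in every comparison (844 and 223 after 6 h, 1306 and 945 after 12 h, 1854 and 1839 after 24 h, 1561 and 1565 after 48 h), against 786 and 643, 69 and 42, 101 and 82, 1524 and 864, 2247 and 2001, 3064 and 3072, and 2707 and 2673 for 0 h against Mock, 0.5, 1, 6, 12, 24 and 48 h, and 1200 and 1338 from 6 to 12 h. On the log2 TPM scales the split was 50 and 58 after 0.5 h with a pseudocount of 0.1, and 72 and 96 or 76 and 131 after 1 h with 1 or 0.1. With a pseudocount of 1 it was 625 and 426 for 0 h against Mock, where the count of lower genes moved by over 1.5 times.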
